A study of Homo sapiens with 6 samples.

Results

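Plasminogen activators, their serpin inhibitors and the tissue factor pathway were examined by RNA-seq in HCT116 cells, an established human line from a colorectal carcinoma, in 6 libraries. The 9 genes were PLAU, PLAUR, PLAT, SERPINE2, SERPINB5, F3, TFPI, TFPI2 and THBD, each found once by its symbol among the 61806 genes of the deposited table. Of the libraries, 3 came from cells with a control short interfering RNA (si-NC, wildtype in the labels) and 3 from cells in which STRIP2 was targeted (si-STRIP2, knockdown in the labels). All were grown in McCoy's 5A medium with fetal bovine serum, and poly(A) RNA was sequenced. The siRNA sequences, the dose and the time after transfection are not given in the sources used here, nor is it stated whether replicates were separate cultures, so p-values measure the spread between these libraries, which may be technical.

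Urokinase (PLAU) and tissue-type plasminogen activator (PLAT) are serine proteases that convert plasminogen into plasmin, which digests fibrin and pericellular matrix. Urokinase acts mostly at the cell surface, bound to its GPI-anchored receptor uPAR (PLAUR), and is held in check by serpins, inhibitors that trap a protease through a reactive loop. Tissue factor (F3) is the membrane receptor for factor VII and starts the extrinsic clotting cascade. TFPI blocks that start, and thrombomodulin (THBD) turns thrombin from a clotting enzyme into an activator of protein C. Carcinoma cells often carry urokinase, its receptor and tissue factor on their surface.

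The region before the F3 start site is shown because F3 had the largest fold decrease among the well-expressed members, and because AP-1 and SP1 factors are known to act at this promoter. RefSeq promoter windows matched 7 of the 9 members, with 9 windows in all, as PLAU and SERPINE2 had 2 each, and the 250 bases before each start were searched on both strands for 3 motifs. These were AP-1 (TGANTCA), SP1 (GGGCGG) and EGR1 (GCGNGGGNG), of which SP1 and EGR1 matches can overlap. An AP-1 match was present in 4 of the 9 windows, those of F3, PLAUR, SERPINB5 and TFPI2, beside 6.57% of all 35116 RefSeq windows of this length. SP1 matches were present in 6 of 9 windows (42.6% of all windows), and EGR1 matches in 3 of 9 (17.0%). Sequences are from RefSeq on GRCh38.p14, printed on the minus strand for F3, PLAUR and TFPI2 and the plus strand for SERPINB5, with AP-1 matches in capitals. The F3 stretch (chr1:94541801-94542009) lies outside the exons annotated in GENCODE, and the other stretches, which fall within an annotated exon of some isoform, are 25 bases around the match.
F3: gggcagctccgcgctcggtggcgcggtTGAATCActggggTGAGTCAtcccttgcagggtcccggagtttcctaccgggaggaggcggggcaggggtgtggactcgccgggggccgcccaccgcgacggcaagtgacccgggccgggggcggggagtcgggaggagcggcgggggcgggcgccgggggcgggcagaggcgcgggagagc
PLAUR: acaactccaTGAGTCAgggccgagc
SERPINB5: acttcagccTGAATCAtttctttca
TFPI2: ccccgtgcaTGAATCAgccacccct
The F3 matches lay from -223 to -217 and from -210 to -204 relative to the start site, the first base before it being -1, with 4 SP1 and 2 EGR1 matches closer to the start. The PLAUR match (chr19:43670340-43670364) lay at -186 to -180, that of SERPINB5 (chr18:63476803-63476827) at -146 to -140 and that of TFPI2 (chr7:93890825-93890849) at -87 to -81. The windows of PLAU, SERPINE2 and TFPI held no AP-1 match. A match describes letters only. It was present in both F3 and PLAUR, which fell, in one that was tested and not called (SERPINB5) and in one that was barely detected (TFPI2). PLAU, SERPINE2 and TFPI, whose windows held no match, fell too.

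The libraries held 17184963 to 21721218 counts. STRIP2, the targeted gene and a subunit of the STRIPAK complex, was lower in every si-STRIP2 library, at 72.6% of the si-NC level (2.61 ± 0.0929 against 3.59 ± 0.347 FPKM, SD, n = 3, edgeR adjusted p = 1.62e-05). FPKM is the count scaled by a gene's exonic length and by the library's total, and so allows levels to be set side by side between genes. Mitochondrial genes took 4.88% to 8.88% of counts in si-NC and 5.73% to 6.30% in si-STRIP2. Of 11 colorectal epithelial markers, 6 had a mean of at least 1 FPKM, led by EPCAM (187 to 213 FPKM), while CDX1 was listed at 0 in every library and VIL1 reached 0.030 FPKM. Leukocyte markers summed to 0.38 to 0.72 FPKM over all libraries, fibroblast markers to 1.94 to 2.68, platelet markers to 1.22 to 1.92 and hepatocyte markers to 0.080 to 1.21, with PPBP, PF4, GP9 and COL1A2 at 0. Most of the fibroblast sum was COL1A1 (mean 2.16 FPKM, 293 to 427 counts). Most of the platelet sum was GP1BA (mean 1.22 FPKM, 39 to 67 counts).

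The members differed widely in level, and 6 of them had a mean of at least 5 FPKM in si-NC cells. In order of mean FPKM in si-NC cells these were PLAU (25.6), SERPINE2 (21.9), F3 (14.8), SERPINB5 (8.61), PLAUR (8.17) and TFPI (5.69). PLAT (1.11), THBD (0.21) and TFPI2 (0.020) followed. SERPINB5 and PLAUR were neighbours whose library values overlapped, and no other neighbours in this order did. In si-STRIP2 cells the order was the same, but F3 (9.41) and SERPINB5 (9.22) now overlapped, and PLAUR (6.91) lay clear below SERPINB5.

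**Figure D1:**
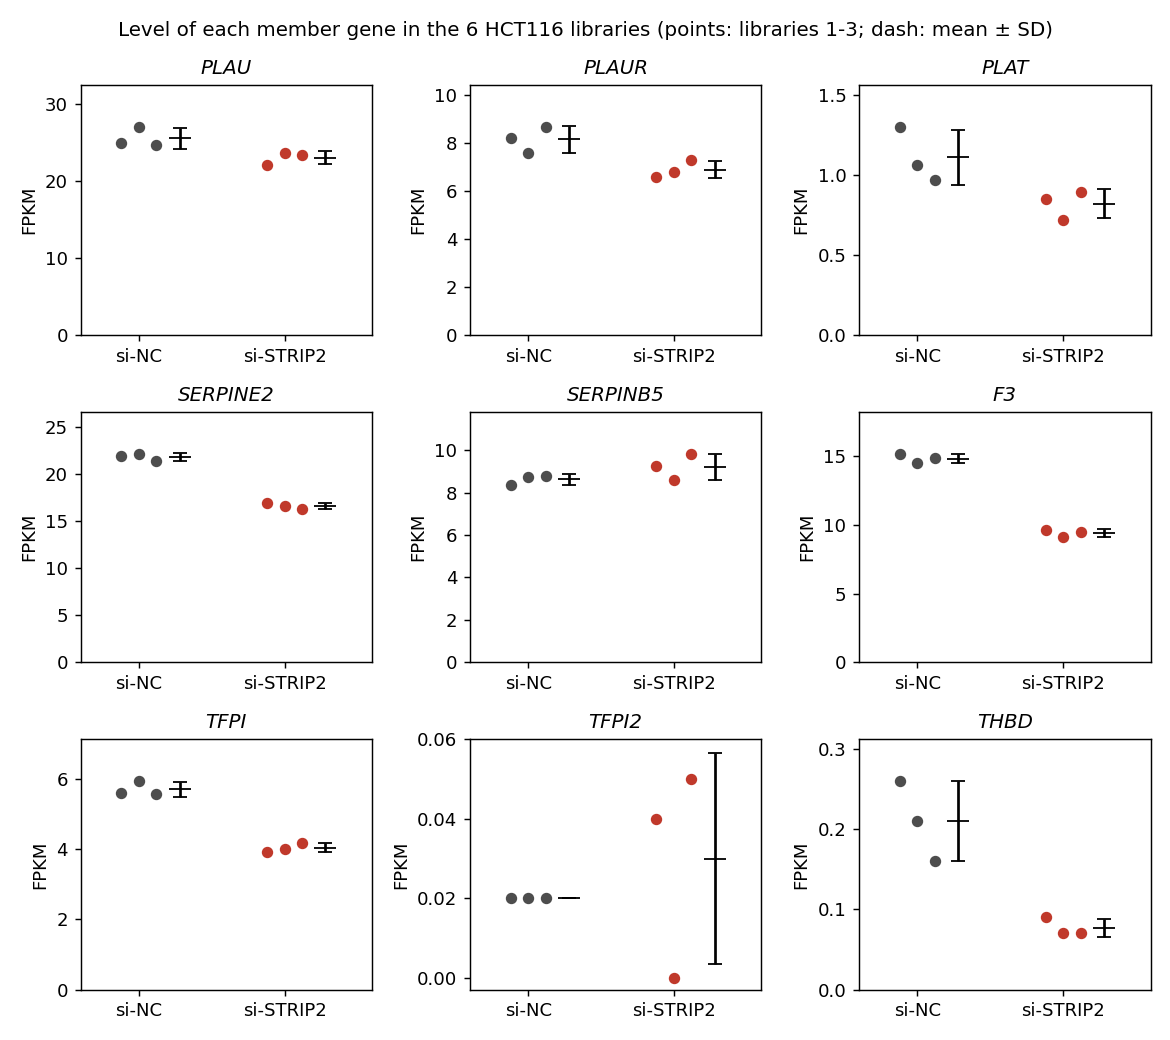
FPKM (y axis, from 0, or just under 0 for TFPI2, with its own range in each panel) of the 9 genes in each library, si-NC in grey and si-STRIP2 in red, with a dash and bar for the mean and SD of 3 libraries. The groups are apart for all genes but SERPINB5 and TFPI2, and the gap in FPKM is widest for F3, where si-NC lies at 14.47 to 15.17 and si-STRIP2 at 9.12 to 9.65 FPKM.

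Of the 8 members that passed the filter on low counts, 7 were called lower in si-STRIP2 cells at an edgeR adjusted p under 0.05, 1 was not called and 0 were called higher. This is read against a background in which 54.8% of 15687 tested genes were called, 27.0% as lower and 27.8% as higher. In the same 7 members the FPKM ranges did not overlap, the knockdown libraries all being lower, as was the case for 28.7% of all tested genes. The median log2 fold change of the 8 was -0.43, and that of all tested genes was 0.014. THBD passed the filter through its si-NC libraries alone, so its difference is partly set by the filter. The same holds for its place among the 7 and in the median. TFPI2 did not pass the filter. In bulk RNA, fewer cells with a transcript and less of it per cell cannot be told apart.

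The activators and their receptor were examined first. PLAU (chr10:73909177-73917496, plus strand) had 24.96, 27.07 and 24.63 FPKM in the si-NC libraries and 22.08, 23.59 and 23.41 in the si-STRIP2 libraries. The groups did not overlap, but the lowest si-NC library was only 1.04 FPKM above the highest si-STRIP2 library. PLAU fell to 90.1% of the control, with a log2 fold change of -0.15 (edgeR standard error 0.048, adjusted p = 0.00681). Without si-STRIP2 replicate 1 its log2 fold change was -0.11 and the call was lost (edgeR adjusted p = 0.0701).

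PLAUR (chr19:43646095-43670547, minus strand), the urokinase receptor, had 8.22, 7.60 and 8.70 FPKM in si-NC and 6.61, 6.81 and 7.30 in si-STRIP2. The third si-STRIP2 library and the second si-NC library came closest, 0.30 FPKM apart. Its mean went from 8.17 ± 0.551 to 6.91 ± 0.355 (SD, n = 3), a log2 fold change of -0.25 (edgeR standard error 0.065, adjusted p = 0.00159). PLAU and PLAUR are ligand and receptor, and their FPKM ratio averaged 3.14 ± 0.376 in the controls and 3.34 ± 0.125 after knockdown (SD, n = 3). The ratios overlapped between the groups, at 2.83 to 3.56 and 3.21 to 3.46.

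PLAT, the tissue-type activator, was expressed at a much lower level than PLAU. It had 220, 143 and 129 counts in si-NC and 124, 98 and 119 in si-STRIP2, or 1.30, 1.06 and 0.97 against 0.85, 0.72 and 0.89 FPKM. The first si-NC library stood above the other two, and the groups did not overlap by a margin of 0.080 FPKM. The log2 fold change was -0.45 with a 95% interval of -0.71 to -0.20 (edgeR adjusted p = 0.00284). Without si-NC replicate 1 it was -0.31 and no longer called (edgeR adjusted p = 0.0700).

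Of the 2 serpins, SERPINE2 fell and SERPINB5 was not called. SERPINE2 (chr2:223975045-224039318, minus strand), or protease nexin 1, inhibits thrombin, urokinase and tissue-type activator at the cell surface. It had 21.99, 22.17 and 21.40 FPKM in si-NC and 16.90, 16.66 and 16.30 in si-STRIP2. The spread within groups was under 2% of the mean, and the groups were 4.50 FPKM apart at their closest. SERPINE2 fell to 76.1% of the control (log2 fold change -0.40, edgeR standard error 0.040, adjusted p = 1.74e-10).

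SERPINB5 (chr18:63476958-63505085, plus strand), or maspin, is a clade B serpin that is not known to inhibit proteases by the usual serpin mechanism. SERPINB5 had 8.33, 8.72 and 8.79 FPKM in si-NC and 9.24, 8.59 and 9.82 in si-STRIP2. The second si-STRIP2 library lay among the controls. Its log2 fold change was 0.096 with a 95% interval of -0.032 to 0.22 (edgeR adjusted p = 0.199), an interval that does not reach the PLAU or PLAUR estimates.

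F3 (chr1:94529173-94541759, minus strand), the tissue factor gene, had the largest difference in FPKM of the 9. Its values were 15.17, 14.47 and 14.84 FPKM in si-NC and 9.65, 9.12 and 9.46 in si-STRIP2. The groups were 4.82 FPKM apart at their closest, while the SDs were 0.350 FPKM (controls) and 0.269 FPKM (knockdown). F3 fell to 63.5% of the control, a log2 fold change of -0.66 (edgeR standard error 0.059, adjusted p = 1.86e-11). The difference in mean FPKM was -5.42 for F3 and -5.23 for SERPINE2, which started from a higher level.

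TFPI (chr2:187464230-187565760, minus strand), the Kunitz-type inhibitor of the tissue factor and factor VII complex, had 5.60, 5.93 and 5.55 FPKM in si-NC and 3.92, 4.00 and 4.17 in si-STRIP2. The libraries of each group lay close together and the groups did not overlap. TFPI fell to 70.8% of the control (log2 fold change -0.50, edgeR standard error 0.049, adjusted p = 1.37e-10). The clotting initiator and its inhibitor were thus both lower. The FPKM ratio of F3 to TFPI averaged 2.61 ± 0.146 in the controls and 2.34 ± 0.107 after knockdown (SD, n = 3), with overlapping ranges of 2.44 to 2.71 and 2.27 to 2.46.

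TFPI2 (chr7:93885396-93890753, minus strand), a Kunitz inhibitor of plasmin and other matrix-degrading proteases, was at or under the limit of detection. It had 1, 1 and 1 counts in si-NC and 2, 0 and 2 in si-STRIP2, all at or under the 3 counts that a library with 0 allows. TFPI2 did not pass the filter and no fold change is given, since both groups were at the floor. With no filter it was tested and not called, and a difference was not detectable at this depth.

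THBD (chr20:23045633-23049672, minus strand), the thrombomodulin gene, was also rare. It had 23, 15 and 11 counts in si-NC and 7, 5 and 5 in si-STRIP2, or 0.21 ± 0.05 against 0.0767 ± 0.0115 FPKM (SD, n = 3). The groups did not overlap, but the first si-NC library stood above the others. The log2 fold change of THBD was -1.44 with a 95% interval of -2.24 to -0.63 (edgeR adjusted p = 0.00257). No si-STRIP2 library reached the filter's level for THBD, so this estimate and its p-value are partly set by the filter. Thrombomodulin is best known from endothelium, whose 7 markers summed to 2.38 to 2.94 FPKM in si-NC and 1.95 to 2.46 in si-STRIP2. Most of that sum was ESAM, while PECAM1 had at most 3 counts and CDH5 at most 1 count in any library. Their part in the THBD difference was not tested.

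**Figure D2:**
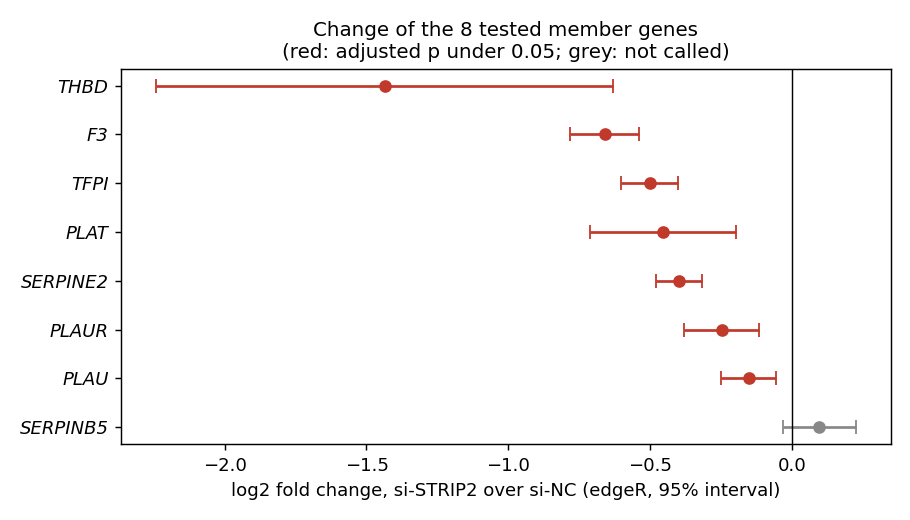
Log2 fold change of the 8 tested members (x axis, si-STRIP2 over si-NC) with 95% intervals from edgeR, red where the adjusted p was under 0.05. SERPINB5, at 0.096, is the only interval that spans 0, and that of THBD, from -2.24 to -0.63, is the widest. THBD passed the filter through its si-NC libraries alone.

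Strand use in counting is not given in the sources used here, so genes overlapping the members were checked. C10orf55, on the strand opposite to PLAU, held 1.07% as many counts as PLAU, and CALCRL-AS1 held 1.44% as many as TFPI. Overlapping genes of PLAUR and SERPINB5 held under 0.1%. TFPI2 differs, since GNGT1 on the other strand had 22 to 62 counts per library. F3, SERPINE2, THBD and PLAT had no overlapping gene in the table.

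The nearest tested genes on both sides of the members were called in both directions. Of all 18, 5 were called lower, 6 were called higher and 7 were not called, where 27.0% and 27.8% of all tested genes were called lower and higher. Of the 14 nearest tested genes beside the 7 members called lower, 1 was called lower, 6 were called higher and 7 were not called. The one called lower among these 14 was CALCRL, the calcitonin receptor-like receptor gene 15770 bases from TFPI (log2 fold change -0.71, edgeR adjusted p = 7.84e-06). Overlapping genes, mainly CALCRL-AS1, held 11.4% as many counts as CALCRL. AP3M2, an AP-3 adaptor subunit gene 3045 bases from PLAT (chr8:42174718-42207709, minus strand), rose by 0.96 on the log2 scale (edgeR adjusted p = 1.14e-15). On the other side of PLAT, IKBKB, a kinase gene of NF-kB signalling, rose by 0.58 (edgeR adjusted p = 3.52e-09). PLAU lay between CAMK2G, which rose by 0.24, and VCL, the vinculin gene, at 0.48 (edgeR adjusted p = 0.00149 and 2.01e-12). Genes that overlap VCL held 55.0% as many counts. SMG9 beside PLAUR (0.46) and MRPL44 beside SERPINE2 (0.28) were the other genes called higher. On the other sides, CADM4 beside PLAUR and CUL3, 430832 bases from SERPINE2, were not called (-0.15 and -0.072, edgeR adjusted p = 0.0559 and 0.141). Beside F3, neither ABCD3 (0.051) nor SLC44A3-AS1 (-0.36) was called (edgeR adjusted p = 0.341 and 0.0698). For SLC44A3-AS1, overlapping genes held 283% as many counts. GULP1, 725909 bases from TFPI, was not called either (-0.033, edgeR adjusted p = 0.521). Nor were RPL41P1 and NXT1, 1290283 and 301119 bases from THBD (-0.13 and -0.090, edgeR adjusted p = 0.300 and 0.372).

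The 4 nearest tested genes around SERPINB5 and TFPI2 were all called lower. VPS4B and HMSD, 54475 and 444216 bases from SERPINB5 on either side, had log2 fold changes of -0.17 and -0.54 (edgeR adjusted p = 0.0014 and 0.0239). HMSD overlaps SERPINB8, and genes that overlap HMSD held 877% as many counts. CALCR and BET1, 310666 and 72009 bases from TFPI2, had log2 fold changes of -1.15 and -0.30 (edgeR adjusted p = 0.00442 and 7.95e-05). CALCR had 21 to 30 counts in si-NC and 6 to 17 in si-STRIP2, where 1 library reached the level the filter asks for.

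The genes most like PLAU, the member with the highest mean level, were found by Pearson correlation of log2 CPM over the 6 libraries among 6654 other genes with a mean of at least 5 FPKM. They were LRRFIP2 (r = 0.993), FBXO33 (r = 0.993) and PPIG (r = 0.990). The 6 points share their libraries and the difference between the groups, and 9.08% of the genes compared had r over 0.9.

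Around the members, 6 wider lists of 146 genes were counted, of which 82 were tested. Of these 43 were called lower and 16 higher, or 52.4% and 19.5%, beside 27.0% and 27.8% of all tested genes. Of the 43, 3 (HRG, KLK5 and SLPI) passed the filter through si-NC alone, with no si-STRIP2 library at its level. SERPINF2, SERPING1 and TMPRSS4, also called lower, reached that level in all si-NC libraries but in only 2, 1 and 1 si-STRIP2 libraries. The median log2 fold change of the 82 was -0.21, beside 0.014 for all tested genes. In the deposited annotation, the pathway term for complement and coagulation cascades, examined after the lists, had 37 tested genes, 27 called lower and 4 higher. That term includes 6 of the members, and without them 21 of 31 were called lower and 4 higher, with a median of -0.46. Genes of the 6 lists were not taken out of the 31, so the term can count the same genes again. How many of the 31 passed the filter through si-NC alone was not examined.

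Among 14 tested partners of the plasminogen system, 6 were lower and 3 higher (median -0.12). Shares called lower and higher were 42.9% and 21.4%, beside 27.0% and 27.8% of all tested genes. PLG, the plasminogen gene itself, had 0 counts in si-NC and 2 in si-STRIP2 in all. ENO1, a glycolytic enzyme that also binds plasminogen at the cell surface, rose from 260.0 ± 8.57 to 357 ± 6.30 FPKM (log2 fold change 0.45, edgeR adjusted p = 3.39e-10). S100A10, a plasminogen receptor subunit, rose by 0.16 (edgeR adjusted p = 0.00224), while its partner ANXA2 was at 0.032 and not called (edgeR adjusted p = 0.558). IGF2R, a receptor that binds uPAR and plasminogen, fell by 0.28 on the log2 scale (edgeR adjusted p = 1.02e-05). MRC2, the uPAR-associated collagen receptor, had a log2 fold change of -0.58, and SORL1, an endocytic receptor, of -0.33 (edgeR adjusted p = 0.000106 and 1.90e-05). HRG had a log2 fold change of -1.23 on 55 and 22 counts in all (edgeR adjusted p = 0.00565), and genes that overlap it held 10.4% as many. Like THBD, HRG passed the filter through its si-NC libraries alone, so its difference is partly set by the filter.

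Of the 32 other serpins, 13 were tested, 7 called lower and 2 higher (median -0.41). The shares called lower and higher were 53.8% and 15.4%, beside 27.0% and 27.8% of all tested genes. Among the 7, SERPINF2 and SERPING1 reached the filter's level in only 2 and 1 si-STRIP2 libraries, so their place there is partly set by the filter. SERPINB8, a clade B inhibitor of furin, had 5.56, 5.73 and 5.50 FPKM in si-NC and 1.79, 1.73 and 1.66 in si-STRIP2, so it fell to 30.9% (log2 fold change -1.70, edgeR adjusted p = 7.00e-19). Genes overlapping SERPINB8 held 18.3% as many counts. SERPINB1, an inhibitor of neutrophil proteases, fell by 0.41 on the log2 scale (edgeR adjusted p = 8.46e-10). SERPINA1, alpha-1 antitrypsin, fell from 0.637 to 0.277 FPKM (edgeR adjusted p = 2.27e-05). SERPINB2, a clade B inhibitor of urokinase, had 0 counts in every library.

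Of the coagulation factors and receptors, 8 of 14 tested were lower and 3 higher (median -0.20). As shares this was 57.1% and 21.4%, beside 27.0% and 27.8% of all tested genes. F2RL1, the receptor PAR2 that tissue factor and factor VII signal through, was the most abundant receptor of the list, and fell from 96.7 ± 2.89 to 66.2 ± 0.531 FPKM (log2 fold change -0.55, edgeR adjusted p = 9.97e-14). PROS1, the protein S gene and cofactor of protein C and TFPI, fell from 8.57 ± 0.392 to 5.33 ± 0.229 FPKM (log2 fold change -0.69, edgeR adjusted p = 7.23e-12). LMAN1 and MCFD2, which together carry factors V and VIII out of the endoplasmic reticulum, fell by 0.49 and 0.52 on the log2 scale (edgeR adjusted p = 1.02e-12 and 4.86e-13), and genes overlapping MCFD2 held 14.2% as many counts. F10, the factor X gene, had a log2 fold change of -1.16 at 1.04 FPKM in si-NC (edgeR adjusted p = 0.000112), and genes that overlap it held 34.5% as many counts. F7, whose protein binds tissue factor, had 1 count in si-NC and 2 in si-STRIP2 in all.

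Among membrane serine proteases, kallikreins and small inhibitors, 8 of 14 tested were lower and 3 higher (median -0.35). As shares this was 57.1% and 21.4%, beside 27.0% and 27.8% of all tested genes. KLK7, a kallikrein-related protease, fell from 14.5 ± 0.582 to 8.12 ± 0.0493 FPKM (log2 fold change -0.84, edgeR adjusted p = 8.28e-13). KLK6 had a log2 fold change of -0.59 and KLK10 of -0.91 (edgeR adjusted p = 1.63e-08 and 2.32e-07). SLPI, the secretory leukocyte protease inhibitor, had a log2 fold change of -3.66 (edgeR adjusted p = 1.94e-13). KLK5 and TMPRSS4 were rare, at 0.487 and 0.18 FPKM in si-NC, with log2 fold changes of -1.62 and -1.43 (edgeR adjusted p = 0.0027 and 0.000336). Genes that overlap KLK5 held 13.3% as many counts. SLPI and KLK5 passed the filter through their si-NC libraries alone, so their place among the 8 lower genes is partly set by the filter, and TMPRSS4 reached its level in 1 si-STRIP2 library.

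Plasmin activates several matrix metalloproteinases, and of that list 5 of 13 tested were lower and 2 higher (median -0.15), a share of 53.8% called beside 54.8% of all tested genes. By direction, 38.5% were called lower and 15.4% higher, beside 27.0% and 27.8% of all tested genes. TIMP3, a metalloproteinase inhibitor bound to matrix, fell from 1.43 ± 0.121 to 0.323 ± 0.0586 FPKM (log2 fold change -2.16, edgeR adjusted p = 1.86e-12). TIMP1 and MMP14 fell by 0.21 and 0.30 on the log2 scale, and MMP15 rose by 0.19 (edgeR adjusted p = 0.000667, 0.00133 and 0.00516). The secreted collagenase and gelatinase genes MMP1, MMP2 and MMP9 were not tested, with 10, 6 and 13 counts in si-NC in all.

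Transcription factors known at the PLAU, PLAUR and F3 promoters had 9 of 14 lower and 3 higher (median -0.32). Shares called lower and higher were 64.3% and 21.4%, beside 27.0% and 27.8% of all tested genes. JUN and FOS, the founding AP-1 subunits, had log2 fold changes of -2.60 and -2.01, and JUND of -0.75 (edgeR adjusted p = 3.11e-23, 5.41e-20 and 4.86e-13). EGR1 had a log2 fold change of -1.45 and ETS1 of -1.16 (edgeR adjusted p = 2.38e-22 and 9.82e-13). FOSL1, another AP-1 subunit, rose by 0.41 and SP1 by 0.12 (edgeR adjusted p = 6.01e-08 and 0.00987). The part of these factors in the fall of F3, PLAUR or PLAU was not tested.

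**Figure D3:**
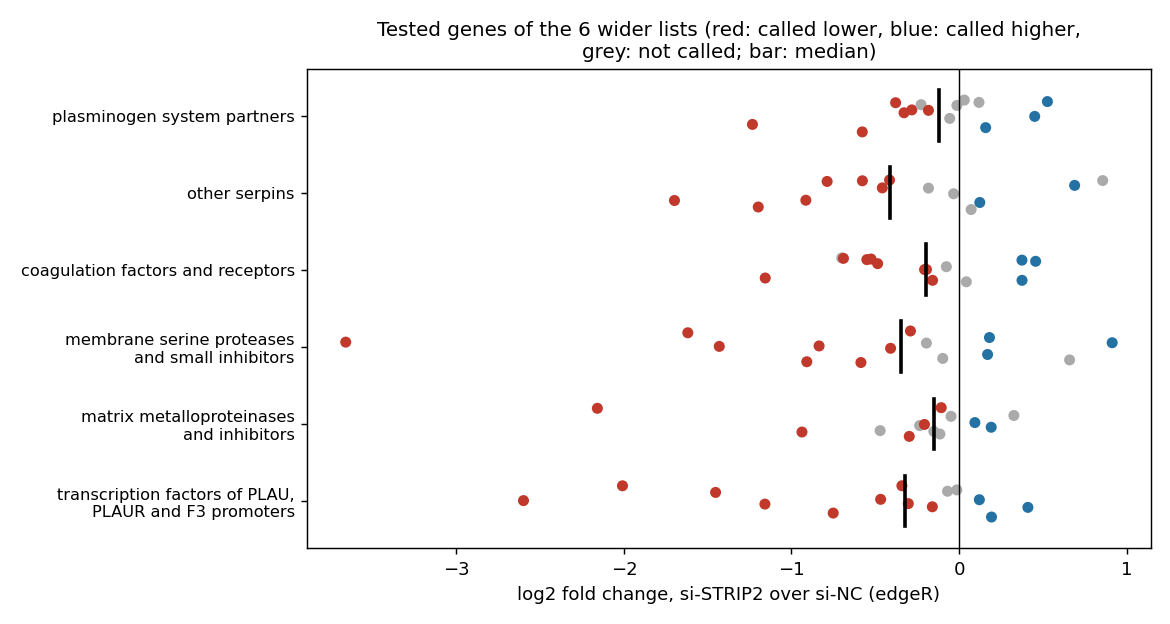
Log2 fold change (x axis, si-STRIP2 over si-NC) of the 82 tested genes of the 6 lists, red where called lower, blue where called higher and grey where not called, with a bar at each list's median. The medians lie between -0.41 for the other serpins and -0.12 for the plasminogen partners, and the point farthest left is SLPI at -3.66, which passed the filter through its si-NC libraries alone.

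The members were recomputed under 17 alternative settings. F3, TFPI and SERPINE2 were called lower in all 17, with log2 fold changes from -0.69 to -0.60, from -0.53 to -0.41 and from -0.42 to -0.38. When the test asked for a change beyond 1.2-fold, 4 members were called lower in place of 7, as PLAU, PLAUR and PLAT did not pass (edgeR adjusted p = 1, 0.653 and 0.0804). The 4 included THBD (edgeR adjusted p = 0.00927), which passed the filter through its si-NC libraries alone. At that threshold 1943 of 15687 tested genes were called lower. SERPINB5 was not called under any of the 17 settings, with log2 fold changes from 0.043 to 0.14.

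**Figure D4:**
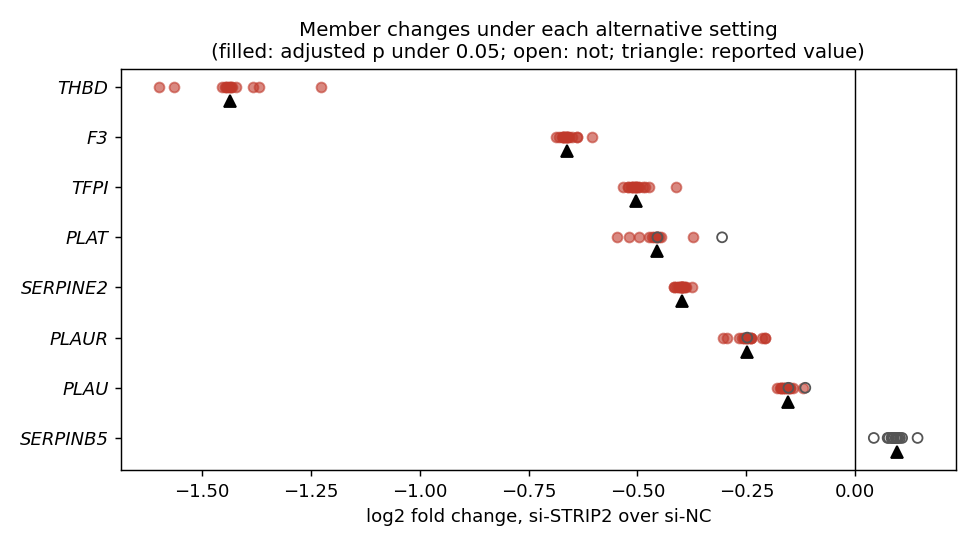
Log2 fold change (x axis, si-STRIP2 over si-NC) of each tested member under each alternative, filled where the adjusted p was under 0.05 and open where not, with a triangle at the reported value. F3 stays between -0.69 and -0.60, while open points occur for PLAT, PLAUR, PLAU and SERPINB5.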

How the data were processed

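RNA-seq of 6 HCT116 libraries (3 si-NC, 3 si-STRIP2, grouped by title) was used. The authors deposited whole-number counts and FPKM values per gene, per the file headers. The submitters' processing notes name cutadapt 1.9.1, HISAT2 2.2.1, HTSeq 0.6.1 and build GRCh38.p13. Deposited FPKM values matched counts scaled by exonic size and total count within 0.005. The annotation release and strand setting are not given in the sources used here.

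Counts were tested in R 4.3.3 with edgeR 4.0.16: filterByExpr (minimum count 10, 15687 genes kept), TMM scaling, quasi-likelihood F test (2-sided), Benjamini-Hochberg adjustment over all tested genes, called at an adjusted p under 0.05. Standard errors were the log2 fold change over the square root of F. Depth was 17184963 to 21721218 counts. On simulated counts for 15687 genes, 95.0% of genes changed by 1 and 64.0% of those changed by 0.4 on the log2 scale were recovered, and 3.05% of calls were unchanged genes. The simulation changed 200 genes and gave all genes a common spread, whereas 54.8% of genes were called in the data. Its rates may therefore not hold for the reported calls.

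Members, lists and alternatives were chosen with earlier results of these data known. Besides the members and STRIP2, the text names per list the 4 called genes with the smallest adjusted p and those called with at least a 2-fold change, the nearest tested genes, and the 3 genes most like PLAU; other genes were named after their values were seen. A gene that this rule names is not reported here. DESeq2 1.42.0 and limma 3.58.1 (on log2 FPKM plus a pseudocount) served as alternatives. A planned ratio of F3 to TFPI2 was left out, as TFPI2 was listed at 0 in 1 library.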

Additional observations from a re-analysis of the deposited data

How the results depend on the processing

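Results were recomputed under 17 alternatives, with neither STRIP2 nor any of the 8 members that passed the filter changing direction under any that tested it. The members called lower numbered 4 to 7, and 0 were called higher under any (SERPINB5, the one with a positive value, had an unadjusted p of 0.136 in edgeR). The filter of at least 1 FPKM in 3 libraries removed PLAT and THBD, leaving 6 tested and 5 called lower by edgeR and by limma. Of all 12329 genes tested with that filter, edgeR called 3853 lower and limma 3316 (pseudocount 1) and 3312 (pseudocount 0.1). Asking for more than a 1.2-fold change gave 4 members lower, 1943 genes lower and 1780 higher over all, and 24 lower and 6 higher over the wider lists. STRIP2 stayed lower, from -0.54 to -0.35. Over all tested genes, 12329 to 32799 by setting, the lower and higher counts ranged over 1943 to 4420 and 1780 to 4388. Of 204 recomputed counts of single lists, 41 moved by over 1.5 times. The lower and higher counts of the plasminogen partners ranged over 2 to 6 and 1 to 3, of other serpins over 3 to 7 and 0 to 2, of coagulation genes over 5 to 8 and 3 to 6, of membrane proteases over 6 to 9 and 1 to 3, of metalloproteinases over 1 to 5 and 0 to 2, and of transcription factors over 6 to 9 and 1 to 3.

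With the replicate number as a block, 7 members were called lower, 4097 genes lower and 4196 higher. Libraries of the same number did not deviate together (r = -0.086, -0.013 and -0.072 over tested genes). Those of different numbers had r from -0.04 to 0.112, so no shift shared by number was seen. Whether libraries of the same number were handled together is not given in the sources used here, and these values cannot settle it.

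Depth limits TFPI2, with 7 counts in all, and THBD, with 5 to 23 per library. Intervals cover the spread of these libraries only.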
